A study of Mus musculus with 4 samples.

Results

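Pericytes and vascular smooth muscle cells, the mural cells of blood vessels, were taken from the synovial single-cell libraries by a count rule. A barcode counted as mural when it passed the filters (at least 500 UMIs, at most 20% of them from mitochondrial genes), held at least 4 UMIs summed over Rgs5, Notch3, Myh11 and Abcc9, and held no UMI of Pecam1, Cdh5, Pdgfra or Ptprc. A UMI (unique molecular identifier) stands for 1 captured transcript. By this rule 448 of the 10136 passing synovial barcodes were members, out of 29563 passing and 30943 deposited barcodes in all 4 libraries. By class, 195 were pericyte-like (more Rgs5 than Myh11 UMIs), 150 were smooth muscle-like (more Myh11 than Rgs5) and 103 held as many UMIs of one as of the other. The 8 genes of the rule chose the cells, so their levels are given as a description only.

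The study compared mice carrying a human TNF transgene (hTNFtg, written TNF+), which develop an inflammatory arthritis, with littermates that lack it (TNF-). All were 4-month-old female mice on the C57BL/6 background. Synovium of 5 to 10 mice per genotype was pooled, digested with type II collagenase and run as 1 library per genotype, and lungs of 3 to 5 mice per genotype were pooled likewise but digested with other enzymes (a different collagenase, elastase and a dispase). The transgene is a human gene and was not among the mouse genes counted. With 1 library per group no difference between genotypes could be tested, and all intervals given below are 95% intervals for counting error only, with the spread between mice unknown.

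Mural cells sit on the outer face of the endothelial tube. Pericytes cover capillaries and venules, share their basement membrane and hold the ATP-sensitive potassium channel made of Kir6.1 (Kcnj8) and SUR2 (Abcc9), while smooth muscle cells ring arterioles and larger vessels and contract through smooth muscle myosin (Myh11) and actin (Acta2). Notch3 is the Notch receptor of both, and Rgs5 damps signals from G protein-coupled receptors. In inflamed synovium, mural cells are known to border the new vessels of the pannus and to respond to cytokines with adhesion molecules and chemokines.

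The 2 synovial libraries held 6899 TNF- and 4246 TNF+ barcodes with 90427403 and 48454234 UMIs in total, and mitochondrial UMIs removed 3.78% and 17.6% of the barcodes. The median passing barcode held 13057 UMIs in TNF- and 10204 in TNF+. The libraries shared 5 barcode sequences, and no member was among them. The same rule found 116 members in the TNF- lung and 9 in the TNF+ lung, of which 2 and 2 were pericyte-like, so the lung gave no comparison of genotypes here.

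The rule picked mostly cells with a clear marker pattern in the 2 named classes. Pericyte-like cells held a median of 39.5 Rgs5 UMIs in TNF- (highest 167) and 16 in TNF+ (highest 410). Kcnj8, which the rule did not use, was seen in 138 of 168 TNF- and 14 of 27 TNF+ pericyte-like cells, against 4 of 62 and 0 of 88 smooth muscle-like cells. Smooth muscle-like cells held a median of 45 Myh11 UMIs in TNF- (highest 143) and 35 in TNF+ (highest 248), and Acta2, also outside the rule, was in 59 of 62 and 87 of 88 of them. Few cells of the named classes stood at the edge of the rule. With a marker sum of exactly 4 there were 7 pericyte-like TNF- cells and 1 TNF+ cell, and just outside, at a sum of 3, there were 1 and 2. At the same 2 sums there were 1 and 4 smooth muscle-like cells in TNF- and 0 and 4 in TNF+. Of the cells that were neither class, many stood there, with 41 and 41 in TNF- and 2 and 6 in TNF+. Of the 7 TNF- pericyte-like cells at a sum of 4, 0 held Kcnj8 and 4 held Pax7, a satellite cell gene. Some deep TNF- pericyte-like cells also entered mainly through Notch3. Those with 27901 and 16710 UMIs held 1 Rgs5 UMI each, 5 and 3 of Notch3, and 0 of Abcc9.

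**Figure D1:**
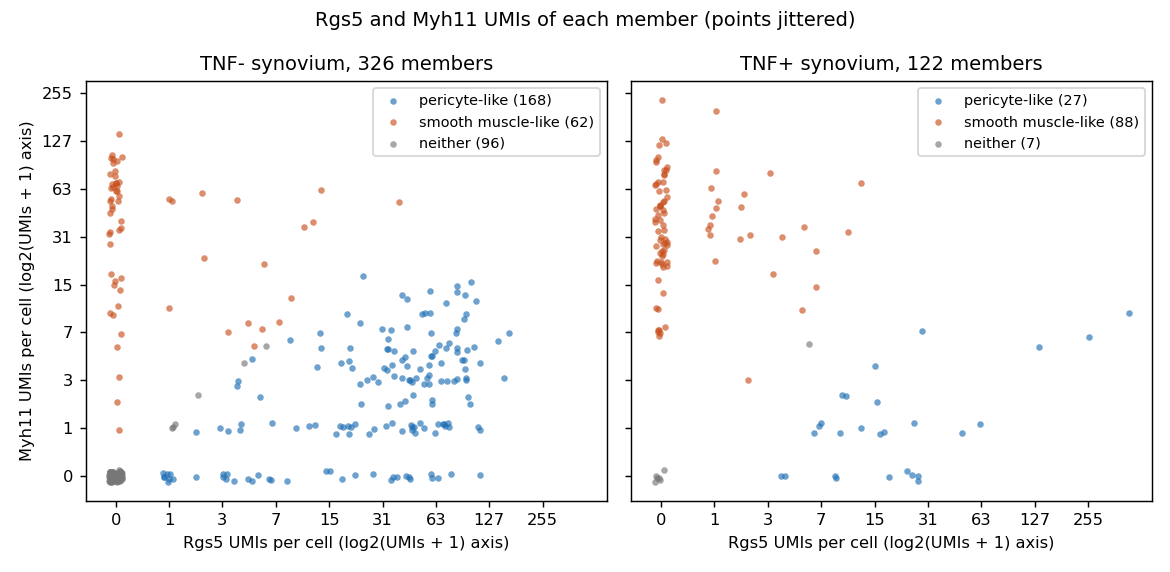
Rgs5 (horizontal) against Myh11 (vertical) UMIs of every member in the TNF- (left) and TNF+ (right) synovium, on log2(UMIs + 1) axes, coloured by class and slightly jittered. Pericyte-like cells (168 and 27) and smooth muscle-like cells (62 and 88) form separate arms, and most of the grey cells that are neither (96 and 7) lie at the origin.

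The members that were neither class went against the mural label. In TNF-, 90 of these 96 cells had no UMI of Rgs5 or Myh11, and 95 of 96 held Notch3, through which they entered. Pax7 or Myf5, the transcription factors that mark the satellite cells of skeletal muscle, was in 82 of the 96. The list of 11 satellite cell genes summed to 2854 counts per 1000000 UMIs of the class (CPM), against 587 in pericyte-like cells and 270 in all other passing barcodes, with Chodl highest at 612 CPM. At least 5 UMIs of that list were also in 14 of the 168 TNF- pericyte-like and 28 of the 62 TNF- smooth muscle-like cells. Des led the list in these 2 classes, at 207 and 475 CPM, and Pax7 or Myf5 was in 7 and 1 of their cells. In TNF+ there were 7 cells of neither class, and 6 of them held at least 5 UMIs of 10 epithelial genes, led by Krt18 (6411 CPM) and Krt8 (5414 CPM). These 103 cells are counted among the members and left out of the class comparisons that follow.

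A set of cells inside the smooth muscle-like class went against its label too. Krt5 and Krt14, keratins of basal epithelial cells, summed to at least 2 UMIs in 2 of the 62 TNF- cells (3.23%) and 18 of the 88 TNF+ cells (20.5%). All 18 TNF+ cells held Myh11 and Tagln, and 17 held Acta2, at 1797, 2918 and 3650 CPM. Yet Notch3, Rgs5, Myocd, Des and Pln had no UMI in any of the 18 (upper limit 19.2 CPM each). The other 70 TNF+ cells held Notch3 at 904 CPM, Des at 472 and Pln at 177. Alongside Krt14 (3188 CPM) and Krt17 (2425), the 18 cells held Cxcl14 (4897 CPM), Sfn (1786), Lcn2 (727), Mme (473), Sox9 (291) and Nrg1 (338), all of which were at most 13.1 CPM in the other 70. The 2 TNF- cells with Krt5 or Krt14 had the same markers present and absent, with Krt14 at 3231 CPM, Cxcl14 at 4297 and no UMI of Notch3, Rgs5, Des or Pln. The main smooth muscle-like values below are therefore also given without these 20 cells, a choice made after the values were seen.

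**Figure D2:**
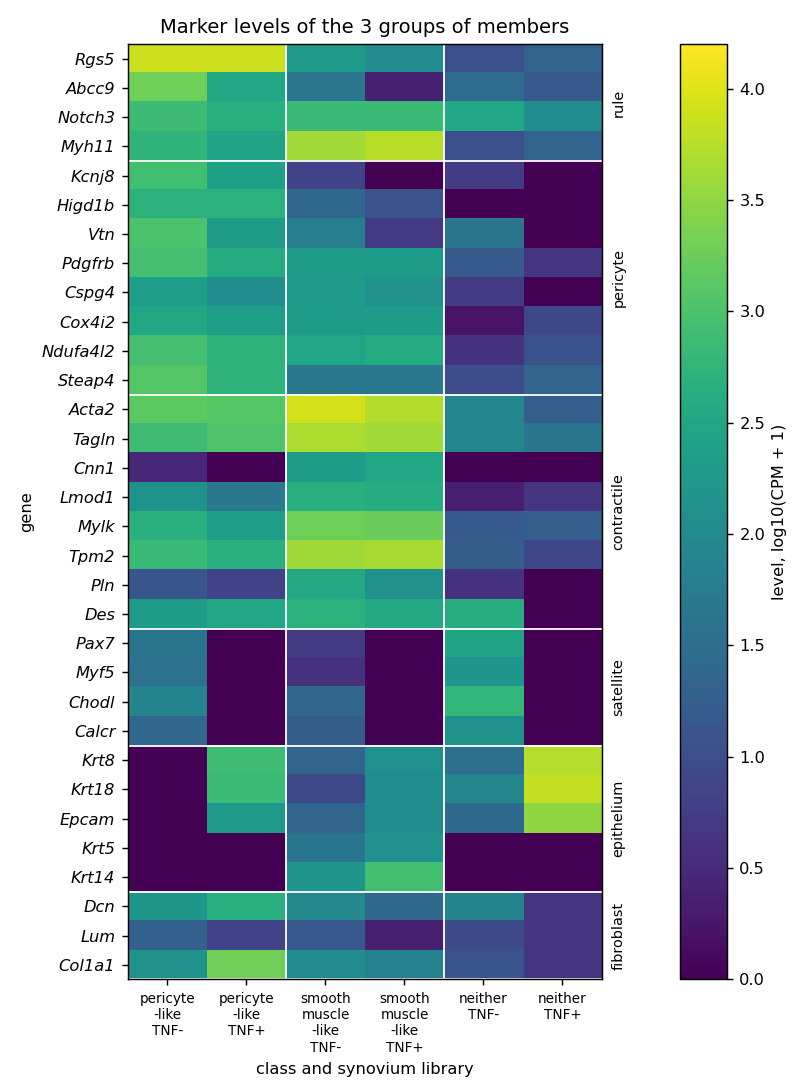
Level of 32 marker genes (rows, grouped by the cell type they mark) in the 3 groups of members in each library (columns), as log10(CPM + 1) of the summed UMIs. Kcnj8, Higd1b and Vtn are highest in pericyte-like cells, Acta2, Tpm2 and Cnn1 in smooth muscle-like cells, Pax7 and Chodl in the TNF- cells that are neither, and Krt8 and Krt18 in the TNF+ cells that are neither.

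The 2 classes took different shares of the libraries. Pericyte-like cells made up 2.53% of passing barcodes in TNF- (interval 2.17 to 2.94, 168 cells) and 0.772% in TNF+ (0.509 to 1.12, 27 cells), a log2 ratio of -1.71 (-2.36 to -1.12). Smooth muscle-like cells made up 0.934% in TNF- (0.717 to 1.20, 62 cells) and 2.52% in TNF+ (2.02 to 3.09, 88 cells), a log2 ratio of 1.43 (0.94 to 1.92). Without the cells that held Krt5 or Krt14 this second ratio was 1.15 (0.63 to 1.67, 60 and 70 cells). Among barcodes without Ptprc, which leaves out leukocytes, the pericyte-like share was 3.06% and 1.28% and the smooth muscle-like share 1.13% and 4.19%, and per 100 endothelial barcodes there were 33.7 and 10.8 pericyte-like and 12.4 and 35.3 smooth muscle-like cells. The endothelial barcodes counted here held none of the other genes of the rule. Not among them were 88 TNF- and 222 TNF+ barcodes that reached the marker sum and failed on Pecam1 or Cdh5 alone. Shares of a digested tissue depend on how well each cell type was released, and this was not tested.

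The direction of the pericyte-like share depended on the exclusion of endothelial genes. Without the condition on Pecam1 and Cdh5, the platelet-endothelial adhesion molecule and VE-cadherin that hold endothelial cells together, 232 TNF- and 214 TNF+ barcodes were pericyte-like, 3.5% and 6.12% of the passing barcodes, and the log2 ratio was 0.81 (0.53 to 1.08). Of all barcodes that reached the marker sum with more Rgs5 than Myh11, 87 of 275 (31.6%) held Pecam1 or Cdh5 in TNF- and 209 of 239 (87.5%) in TNF+. The smooth muscle-like log2 ratio without that condition was 1.73 (1.29 to 2.18). Pericytes captured with endothelial RNA and endothelial cells captured with pericyte RNA cannot be told apart in these barcodes.

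Barcodes that failed on Pecam1 or Cdh5 alone, 64 in TNF- and 187 in TNF+, held genes of both cell types. Their Rgs5 level was 3796 CPM in TNF- and 3286 in TNF+, Abcc9 was 646 and 255, and 57.8% and 58.8% of them held Abcc9 or Kcnj8. The tight junction gene Cldn5 was at 118 CPM in the TNF- and 754 in the TNF+ left-out barcodes, against 4.03 and 0 in the pericyte-like members and 515 and 897 in endothelial barcodes, which were 499 TNF- and 249 TNF+ barcodes with at least 4 UMIs of Pecam1 and Cdh5 and none of the other genes of the rule. Flt1, a VEGF receptor, was at 829 and 1337 CPM in them, and at 168 and 215 in the pericyte-like members. Per 100 Rgs5 UMIs they held 8.31 and 4.31 UMIs of Kcnj8, against 11.4 and 3.35 in the members. Their median depth was 5930 UMIs in TNF- and 13281 in TNF+, against 5608 and 2426 in the members.

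**Figure D3:**
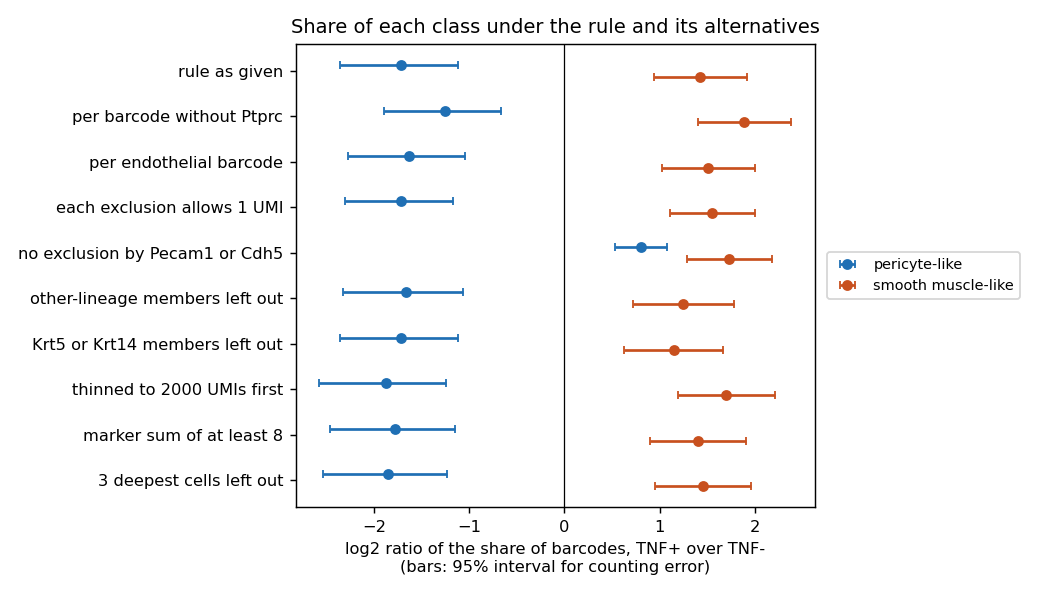
Log2 ratio (TNF+ over TNF-) of the share of passing barcodes that were pericyte-like (blue) or smooth muscle-like (orange) under the rule and 9 alternatives, with 95% intervals for counting error. The smooth muscle-like ratio is above 0 in each setting shown, and the pericyte-like ratio is below 0 in each except without the exclusion by Pecam1 or Cdh5, where it is 0.81.

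The 2 classes were also compared with each other within each library. The counts that follow include the genes that chose the cells, whose differences the rule set, and the named genes leave them out. Of 3996 genes with at least 30 UMIs over both classes in each library, 237 were at least 2-fold higher in pericyte-like cells in both libraries (5.93%) and 340 in smooth muscle-like cells (8.51%). Among genes that did not choose the cells, Kcnj8 led the first group, with 862 CPM against 5.94 in TNF- and 244 against 0 in TNF+. It was followed by Mgp, the matrix Gla protein that binds calcium and BMPs (2085 against 37.1, and 2843 against 19.2), and by the cyclic nucleotide phosphodiesterases Pde7b (580 against 11.9, and 209 against 5.49) and Pde8b. The basement membrane gene Nid1, the mitochondrial gene Higd1b (495 against 25.3, and 483 against 11), vitronectin (Vtn), the interferon-inducible Ifitm1 and Iigp1, and the metalloreductase Steap4 completed the 10 named by the rule.

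In smooth muscle-like cells the calponin gene Cnn1 was at 204 CPM against 2.02 in TNF- pericyte-like cells and at 318 against 0 in TNF+. Krt14, Krt17 and Cxcl14 were also among the 10 genes named for this class, and these came from the keratin-bearing cells described above. The others were Cdk11b (1334 against 95.8 CPM in TNF-, 1683 against 35.8 in TNF+), Rrm1 (481 against 22.2, and 483 against 17.9), Vps37b (1035 against 55.5, and 991 against 65.6), Klhl21, Ncapd3 and the brain-type creatine kinase Ckb. Cdk11b is a cyclin-dependent kinase of RNA processing and Rrm1 a subunit of ribonucleotide reductase, and neither is a contractile gene. Reads within introns were counted, so a level can include unspliced transcripts and transcripts of overlapping genes.

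Contractile genes are known to be driven by serum response factor, which binds the CArG box, with myocardin (Myocd) as its partner in smooth muscle. Among RefSeq promoters (GRCm38.p6, the 250 bases before the start site to 50 after), a CArG box on either strand was found for 5 of the 27 listed contractile genes with a promoter entry (18.5%), 0 of 15 pericyte genes and 439 of 27025 promoters of all genes (1.62%). The windows of Myl9 (regulatory light chain), Vcl (vinculin) and Srf itself are shown as examples with the box in capitals, at 161 bases before the start in Myl9, 227 in Vcl, and 82 and 62 in Srf. Each run is the 250 bases before the start, on the strand of the gene, from chr2:156775214-156775463 (plus strand), chr14:20929148-20929397 (plus strand) and chr17:46556163-46556412 (minus strand).
Myl9: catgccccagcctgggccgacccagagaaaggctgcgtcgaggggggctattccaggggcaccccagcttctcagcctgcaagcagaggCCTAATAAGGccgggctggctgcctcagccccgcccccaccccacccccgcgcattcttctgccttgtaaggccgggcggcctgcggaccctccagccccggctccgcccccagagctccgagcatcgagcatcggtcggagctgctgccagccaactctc
Vcl: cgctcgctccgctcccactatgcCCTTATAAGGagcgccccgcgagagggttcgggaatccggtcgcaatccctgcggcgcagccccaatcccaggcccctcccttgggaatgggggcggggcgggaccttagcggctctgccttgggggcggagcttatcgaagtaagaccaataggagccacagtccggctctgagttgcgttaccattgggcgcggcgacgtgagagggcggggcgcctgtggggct
Srf: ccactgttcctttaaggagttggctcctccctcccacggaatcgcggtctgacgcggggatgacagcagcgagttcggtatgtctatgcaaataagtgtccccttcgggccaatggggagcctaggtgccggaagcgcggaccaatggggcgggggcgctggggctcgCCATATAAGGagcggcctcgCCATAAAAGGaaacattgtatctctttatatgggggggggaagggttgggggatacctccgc
A match of letters is a description of the window and shows no binding.

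Several genes of the pericyte list outside the rule were at least 2-fold lower in TNF+ pericyte-like cells. Depth differed between the libraries, with a median of 5608 UMIs over the 168 TNF- cells and 2426 over the 27 TNF+ cells. The 3 deepest TNF+ cells held 42.8% of that class's UMIs, so many ratios are also given without the 3 deepest cells of each library. Among barcodes that reached the marker sum with more Rgs5 than Myh11, 31.6% in TNF- and 87.5% in TNF+ held Pecam1 or Cdh5. The ratios of this class cover only the members left by that exclusion, and were not computed without it. Of 5634 genes with at least 30 UMIs, 1223 were at least 2-fold lower (21.7%) and 528 at least 2-fold higher (9.37%) in TNF+, and the median log2 ratio over all of them was -0.20. Beside this background, 9 of the 17 tested genes of the pericyte list that are not rule genes were at least 2-fold lower and 1 higher, with a median log2 ratio of -1.01. The median was -0.46 without the 3 deepest cells, where the median of all genes was -0.19.

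Rgs5 itself was at 7552 CPM in TNF- and 7295 in TNF+ (-0.05, or 0.58 without the 3 deepest cells). Both parts of the potassium channel were lower: Abcc9, a rule gene, was at 1892 and 328 CPM, and Kcnj8 at 862 and 244, a log2 ratio of -1.82 (-2.31 to -1.37), or -1.22 without the 3 deepest cells. With each cell thinned to 1000 UMIs, Kcnj8 was seen in 49.7% of 161 TNF- and 16.7% of 24 TNF+ pericyte-like cells (82.1% and 51.9% before thinning), and in 0 of 567 and 0.210% of 951 leukocyte barcodes, which should lack it. Vtn, vitronectin, was at 1005 and 209 CPM (log2 ratio -2.27, or -1.55 without the 3 deepest). Pdgfrb, the receptor through which endothelial PDGF recruits pericytes, was at 898 and 393 CPM (-1.19, -1.57 to -0.83), and at -0.62 without the 3 deepest cells. Not every pericyte gene was lower, as Higd1b stood at 495 and 483 CPM (-0.04, -0.39 to 0.31), although in 10 of the 27 TNF+ cells against 120 of 168. Thinned shares gave 38.5% and 25% for Higd1b, with wide overlap of their intervals (31 to 46.5 and 9.77 to 46.7).

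Genes that set vessel tone were lower as a group in pericyte-like cells. Of 17 tested genes of the vasoactive receptor and cyclic GMP list, 12 were at least 2-fold lower and 1 higher, with a median log2 ratio of -1.26. Without the 3 deepest cells 7 were lower and 2 higher, with a median of -0.88. Of all 5634 tested genes 1187 were then lower and 453 higher. The 2 subunits of the nitric oxide receptor were lower, Gucy1a1 at 482 and 238 CPM (-1.02) and Gucy1b1 at 500 and 209 (-1.26). Without the 3 deepest cells they stood at -0.38 and -0.59. The kinase that nitric oxide signals through, Prkg1, was at 2402 and 1007 CPM (-1.25, or -0.65 without the 3 deepest), and Pde3a at 799 and 280 (-1.51, or -0.95). The endothelin receptors went opposite ways, with Ednrb at 876 and 310 CPM (-1.5, -1.93 to -1.10) and Ednra at 173 and 316 (0.86, 0.39 to 1.32), and leaving out the 3 deepest cells gave -0.88 and 1.13. The angiotensin receptor Agtr1a was at 174 and 47.7 CPM (-1.87, or -1.17 without the 3 deepest), and the adrenergic receptor Adra2a was at 15.1 and 131 CPM (3.12, or 3.41), the latter from 6 cells in each library.

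Ion channels had 7 of 15 tested genes at least 2-fold lower and 1 higher, with a median of -0.80. The contractile list without rule genes had 5 of 25 lower and 2 higher, with a median of -0.24 that turned to 0.27 without the 3 deepest cells. Of the ion channels 5 were then lower and 1 higher, with a median of -0.43. Within the contractile list Acta2 was at 1383 and 1240 CPM (-0.16, or 0.35 without the 3 deepest) and Tagln at 783 and 1097 (0.49, 0.25 to 0.72, or 0.65). Myl9 was at 1023 and 376 CPM (-1.45, or -0.98 without the 3 deepest), the myosin light chain kinase Mylk at 471 and 221 (-1.10, or -0.42) and calsequestrin 2 (Casq2), a calcium store protein, at 252 and 65.6 (-1.94, or -1.24).

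MHC class I genes, part of the NF-kB targets and most tested chemokines were at least 2-fold higher in TNF+ pericyte-like cells, while most interferon genes were not. Of 7 tested MHC class I genes, 6 were at least 2-fold higher and 0 lower, with a median log2 ratio of 2.30 (1.55 without the 3 deepest cells). B2m, the invariant chain, was at 300 and 1478 CPM (2.30, 2.05 to 2.55), H2-K1 at 157 and 1269 (3.01) and H2-D1 at 241 and 2026 (3.07), and the 3 were at 2.13, 2.16 and 2.26 without the 3 deepest cells. All other passing barcodes held H2-D1 at 820 and 1609 CPM. Of 2 MHC class II genes 0 were higher and 1 was lower, with a median of -1.58. Of 18 interferon genes 3 were higher and 1 lower, with a median of 0.01 (0.35 without the 3 deepest cells). Of 21 NF-kB targets 8 were higher and 0 lower, with a median of 0.89 with and without the deepest cells. Nfkbia, the inhibitor that NF-kB induces, was at 347 and 745 CPM (1.10, 0.80 to 1.40, or 1.52 without the 3 deepest), and in 20.5% of 161 TNF- and 54.2% of 24 TNF+ cells after thinning (intervals 14.6 to 27.6 and 32.8 to 74.5, 56.0% and 70.4% before). In leukocyte barcodes, which hold the gene too, the thinned shares were 39.9% and 32.5%.

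Of 8 tested chemokines, 5 were at least 2-fold higher and 1 lower. Ccl2, which draws monocytes, was at 99.8 and 536 CPM (2.43, 2.0 to 2.85, or 3.0 without the 3 deepest) from 17 of 168 and 9 of 27 cells. Cxcl1, which draws neutrophils, was at 374 and 977 CPM (1.39, or 1.16) from 55 and 13 cells. Il6 was at 113 and 721 CPM (2.67, 2.29 to 3.06, or 3.38) from 21 and 6 cells. Ccl19 (20.2 and 346 CPM) and Cxcl10 (53.4 and 513 CPM) rested on single cells, with 81.0% and 95.3% of the TNF+ UMIs from 1 cell each. Myeloid genes, which could bring such transcripts, summed to 92.8 and 274 CPM in these cells against 2408 and 13570 in all other passing barcodes, and their part in the result was not tested. The chemokine that was lower, Cxcl12, holds CXCR4-bearing cells at vessels and stood at 1021 and 238 CPM (-2.10, -2.59 to -1.64), with -2.0 without the 3 deepest cells. It was in 143 of 168 and 13 of 27 cells, and in 59.6% and 20.8% after thinning.

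Interstitial matrix genes were higher as a group, with much of the signal in few cells. Of 21 tested interstitial matrix genes 17 were at least 2-fold higher and 1 lower, with a median of 2.43, or 1.76 without the 3 deepest cells. Col3a1 was at 328 and 3594 CPM (3.46, or 2.77 without the 3 deepest) but was seen in 9 of the 27 TNF+ cells against 95 of 168 TNF- cells. Col1a1 was at 140 and 1967 CPM (3.81, or 1.89), with 58.5% of the TNF+ UMIs from 1 cell. Bgn, biglycan, was at 63.5 and 1275 CPM (4.33, or 3.32), and periostin (Postn) at 122 and 566 (2.21, or 1.43). Decorin (Dcn) stood at 164 and 447 CPM (1.44) with 96.0% of the TNF+ UMIs in 1 cell, and at -3.05 without the 3 deepest. The list of 18 fibroblast genes, which shares Col1a1, Dcn and others with the matrix list, summed to 1527 CPM in TNF- and 3254 in TNF+ pericyte-like cells. Without the members that held at least 3 UMIs of an epithelial, a satellite cell or a fibroblast gene set, the median of the matrix list was 2.58 and Col3a1 stood at 3.53. In TNF+ this left out only 1 cell, for its epithelial UMIs, and 0 cells reached 3 UMIs of the fibroblast set. That set holds none of Col1a1, Col3a1 and Dcn, so the part of fibroblast RNA in the matrix ratios was not tested. Unlike most matrix genes, the laminin chain Lama2 was lower in TNF+, at 623 and 89.4 CPM (-2.80, -3.65 to -2.07) and -2.48 without the 3 deepest. The type IV collagen Col4a1 was at 1324 and 1800 CPM (0.44, or 0.23).

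**Figure D4:**
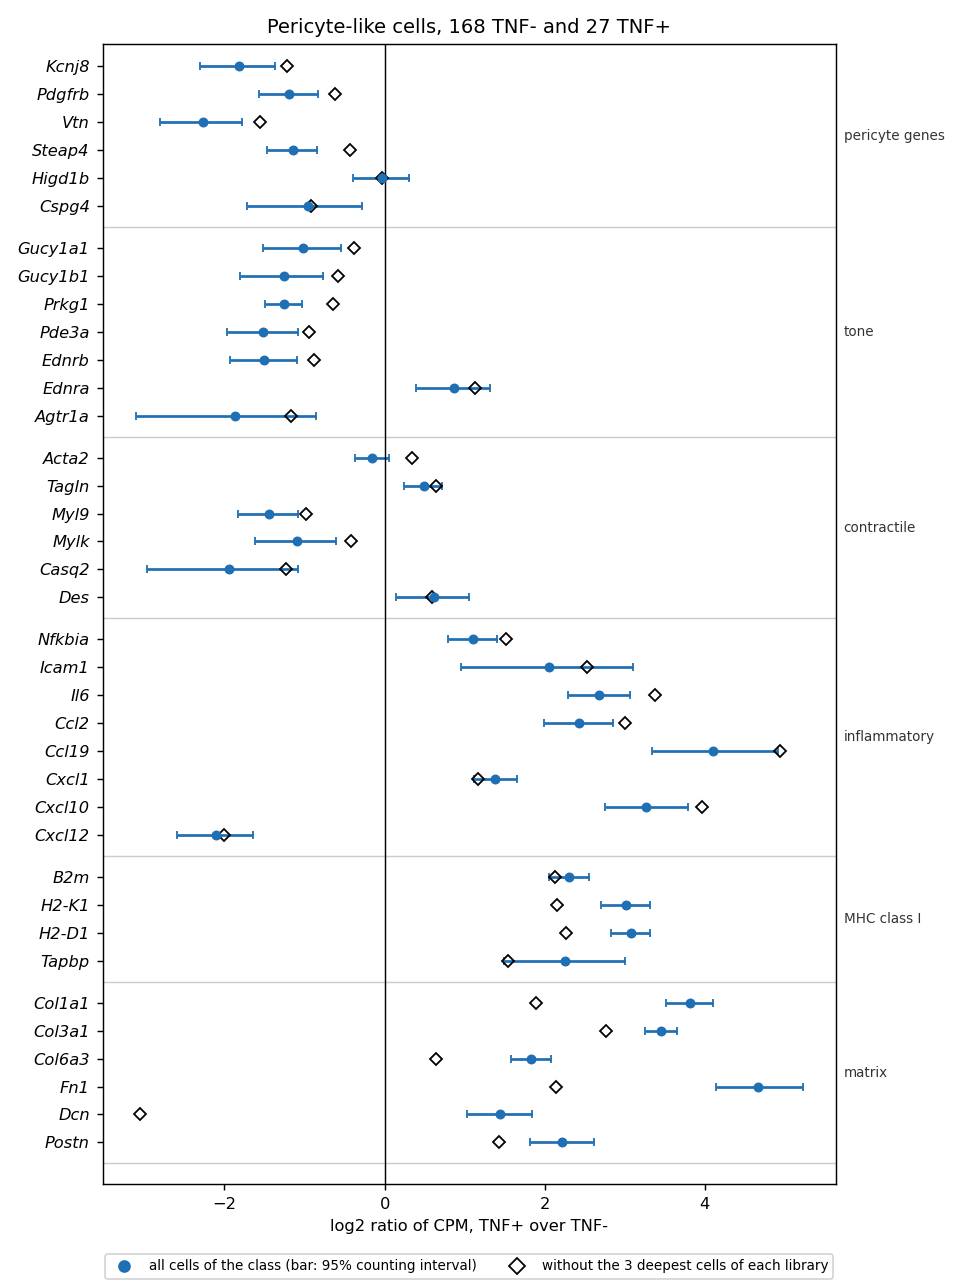
Log2 ratio of CPM (TNF+ over TNF-) of genes in pericyte-like cells, grouped by role, with 95% counting intervals (points and bars) and the ratio without the 3 deepest cells of each library (diamonds). Most pericyte and tone genes lie below 0 and most inflammatory and MHC class I genes above 0, while Dcn moves from 1.44 to -3.05 when the 3 deepest cells are left out.

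By the naming rule, which ranks genes by the interval bound nearest 0, the 12 genes higher in TNF+ pericyte-like cells were Hp, Inhba, Cxcl5, Col18a1, Mmp19, Tent5a, Bgn, Adamts2, Rgcc, Ctsc, Ccl19 and Col3a1. Hp, the haptoglobin gene, had 0 UMIs in TNF- and 931 in TNF+ (5548 CPM), of which 93.6% came from 1 of 5 cells. Inhba, a subunit of activin, was at 0 and 405 CPM from 5 cells, and Cxcl5 at 0 and 256 CPM from 4 cells, with 77.9% and 81.4% of their UMIs in 1 cell each. Without the 3 deepest cells Hp, Inhba and Cxcl5 stood at 500, 72.9 and 20.8 CPM in TNF+. Col18a1, the basement membrane collagen that gives endostatin, was at 18.2 and 566 CPM and kept a log2 ratio of 4.62 without the 3 deepest cells. These genes were therefore seen in few of the 27 cells, between 4 and 9 for the 12.

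Genes named as lower in TNF+ were Cavin2, Ccdc85a, Cd36, Fst, G0s2, Gnai1, Homer1, Mast4, Opcml, Pid1 and Zbtb16. Cavin2, a coat protein of caveolae, was at 513 CPM in 125 of 168 TNF- cells and 53.6 CPM in 7 of 27 TNF+ cells (-3.26, -4.40 to -2.32). The fatty acid transporter Cd36 was at 784 CPM in 134 cells and 131 CPM in 8 cells (-2.58, -3.26 to -1.97). Zbtb16, a zinc finger repressor that glucocorticoids induce, was at 352 and 35.8 CPM (-3.30), and the scaffold gene Homer1 at 372 and 29.8 (-3.64). Without the 3 deepest cells the ratios were -2.68 for Cavin2, -2.08 for Cd36, -2.56 for Zbtb16 and -3.19 for Homer1. Early response genes were mixed, with 6 of 27 at least 2-fold lower and 3 higher. Fos was at 3466 and 1478 CPM (-1.23) and Egr1 at 2285 and 691 (-1.73), whereas Klf4 was at 246 and 805 (1.71), and the 3 stood at -0.52, -1.20 and 1.86 without the 3 deepest cells.

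In smooth muscle-like cells most tested contractile genes differed less than 2-fold between the 2 libraries. Over 5296 tested genes, 582 were at least 2-fold higher in TNF+ (11%) and 319 at least 2-fold lower (6.02%), with a median log2 ratio of 0.04. Of 32 tested contractile genes that are not rule genes 1 was at least 2-fold higher and 2 lower, with a median of -0.09 that turned to 0.09 without the keratin-bearing cells. Myh11, a rule gene, was at 4124 CPM in TNF- and 5655 in TNF+, and at 4296 and 7041 without the keratin-bearing cells. Acta2 was at 8418 and 5186 CPM (-0.70, -0.76 to -0.64), or -0.58 without the keratin-bearing cells, and Tagln, transgelin, at 4776 and 4087 (-0.22, or -0.10). Myl9 (-0.08, or 0.19), Mylk (-0.13, or 0.11) and Lmod1 (-0.15, or 0.05) turned sign with those cells left out. Cnn1 was at 204 and 318 CPM (0.65), and at -0.11 without the keratin-bearing cells. The 2 lower genes of the contractile list were phospholamban (Pln), which restrains the calcium pump, and the amine oxidase Aoc3. Pln was at 348 and 130 CPM (-1.42, -1.78 to -1.06) and Aoc3 at 405 and 176 (-1.21). Without the keratin-bearing cells, which lacked Pln, they stood at -1.04 and -0.84. Myocd was at 141 and 91.9 CPM (-0.62), and at -0.25 without the keratin-bearing cells, in which it had no UMI.

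A few receptors of vessel tone differed at least 2-fold in smooth muscle-like cells, in both directions. The vasopressin receptor Avpr1a was at 47.5 and 232 CPM (2.29, 1.74 to 2.88), from 9 of 62 and 23 of 88 cells, and at 2.66 without the keratin-bearing cells. Ednrb was at 62.4 and 163 CPM (1.39, or 1.76). Ryr2, a calcium release channel, was at 49.0 and 107 CPM (1.13, or 1.5). The adrenergic receptor Adra1a was at 233 and 102 CPM (-1.20, or -0.83), the neuropeptide Y receptor Npy1r at 227 and 93.3 (-1.28, or -0.93), and the CGRP and adrenomedullin receptor Calcrl at 50.5 and 19.2 (-1.40, or -1.02). Over the whole list of vasoactive receptors 2 of 16 tested genes were at least 2-fold higher and 4 lower, with a median of -0.23. Without the keratin-bearing cells 2 were higher and 2 lower, with a median of 0.05. Over all tested genes, with those cells kept, 11% were at least 2-fold higher and 6.02% lower.

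NF-kB pathway genes were higher in TNF+ smooth muscle-like cells. Of 22 tested NF-kB targets 8 were at least 2-fold higher and 0 lower, with a median of 0.89, and without the keratin-bearing cells 9 were higher and 2 lower, with a median of 0.93 beside -0.06 over all tested genes. The pathway's own subunits were among them: Nfkb2 was at 25.3 and 75.5 CPM (1.58, 0.77 to 2.46) and Rela at 55 and 119 (1.12), with 1.46 and 1.14 without the keratin-bearing cells. Nfkbia was at 401 and 792 CPM (0.98, 0.77 to 1.20), or 0.70 without them, and was seen in 38 of 62 and 78 of 88 cells. The adhesion molecule Icam1 was at 19.3 and 233 CPM (3.59, 2.78 to 4.53). Of its 170 TNF+ UMIs, 154 were in the 18 keratin-bearing cells (800 CPM), and the other cells held 6.24 CPM in TNF- and 29.8 in TNF+ (2.26). After thinning Icam1 was in 1.64% of 61 and 12.5% of 88 cells (6.45% and 26.1% before), and in 13.6% and 8.41% of leukocyte barcodes, which also express it.

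Cytokines divided between the 2 kinds of smooth muscle-like cells. Of 5 tested chemokines 3 were at least 2-fold higher and 1 lower, with a median of 1.65 that turned to -0.26 without the keratin-bearing cells. Ccl2 was at 14.9 and 340 CPM (4.52), with 54.4% of the TNF+ UMIs from 1 cell, and at 15.6 and 44.8 CPM (1.52) without the keratin-bearing cells. Il6 lay in the other cells, at 220 CPM in TNF- and 448 in TNF+ without the keratin-bearing cells (1.03), in 16 and 29 cells, against 1 UMI in the 18. Cxcl1 was at 110 and 344 CPM (1.65, 1.27 to 2.04), or 1.36 without them. Csf1, the macrophage growth factor, was at 5.94 and 59.0 CPM (3.31) from 3 and 16 cells, but 3 of 4 TNF- and 34 of 43 TNF+ UMIs were in the keratin-bearing cells. The other cells held 1 and 9 UMIs, or 1.56 and 16.8 CPM (3.43, 0.58 to 8.88). Cxcl12 was lower, as in pericyte-like cells, at 128 and 43.9 CPM (-1.54, -2.17 to -0.94) and at -1.31 without the keratin-bearing cells. The 2 Cxcl12 ratios come from the same 2 libraries.

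Interferon and MHC class I genes were also higher. Of 10 tested interferon genes 5 were at least 2-fold higher and 0 lower, and without the keratin-bearing cells 5 and 0, with medians of 0.97 and 0.73. Isg15 was at 113 and 236 CPM (1.06, 0.67 to 1.47), or 1.33 without the keratin-bearing cells. For MHC class I 5 of 7 were higher, and 3 of 7 without those cells. H2-D1 was at 154 and 357 CPM (1.21, or 1.02) and H2-K1 at 129 and 290 (1.16, or 0.48). These levels lay below those of all other passing barcodes in both libraries (820 and 1609 CPM for H2-D1).

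Some early response and interstitial matrix genes were at least 2-fold higher and some lower. Over all 5296 tested genes 11% were at least 2-fold higher and 6.02% lower, or 362 and 454 genes without the keratin-bearing cells. Of 28 tested early response genes 6 were at least 2-fold higher and 2 lower, with a median of 0.17, and without the keratin-bearing cells 3 were higher and 4 lower, with a median of 0.04. Of 19 interstitial matrix genes 2 were higher and 3 lower, with a median of -0.38. Fosl1, an AP-1 subunit, was at 23.8 and 133 CPM (2.48, 1.71 to 3.35) and seen in 6 of 62 and 37 of 88 cells, with 2.32 without the keratin-bearing cells. Ier3 was at 300 and 940 CPM (1.65), whereas Klf2, which flow induces in endothelium, was at 463 and 119 CPM (-1.96, -2.32 to -1.61), with 1.49 and -1.71 without those cells. The aggrecanase Adamts4 was at 700 and 1233 CPM (0.82), and at 1.19 without the keratin-bearing cells. The TGF-beta brake Smad7 was at 84.7 and 248 CPM (1.55, or 1.42) and the Notch target Nrarp at 159 and 355 (1.16, or 1.52). Heyl, another Notch target, was at 66.8 and 76.8 CPM (0.20, -0.39 to 0.80, or 0.57), and of 12 tested Notch genes 4 were at least 2-fold higher and 1 lower, falling to 1 and 1 without the keratin-bearing cells.

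**Figure D5:**
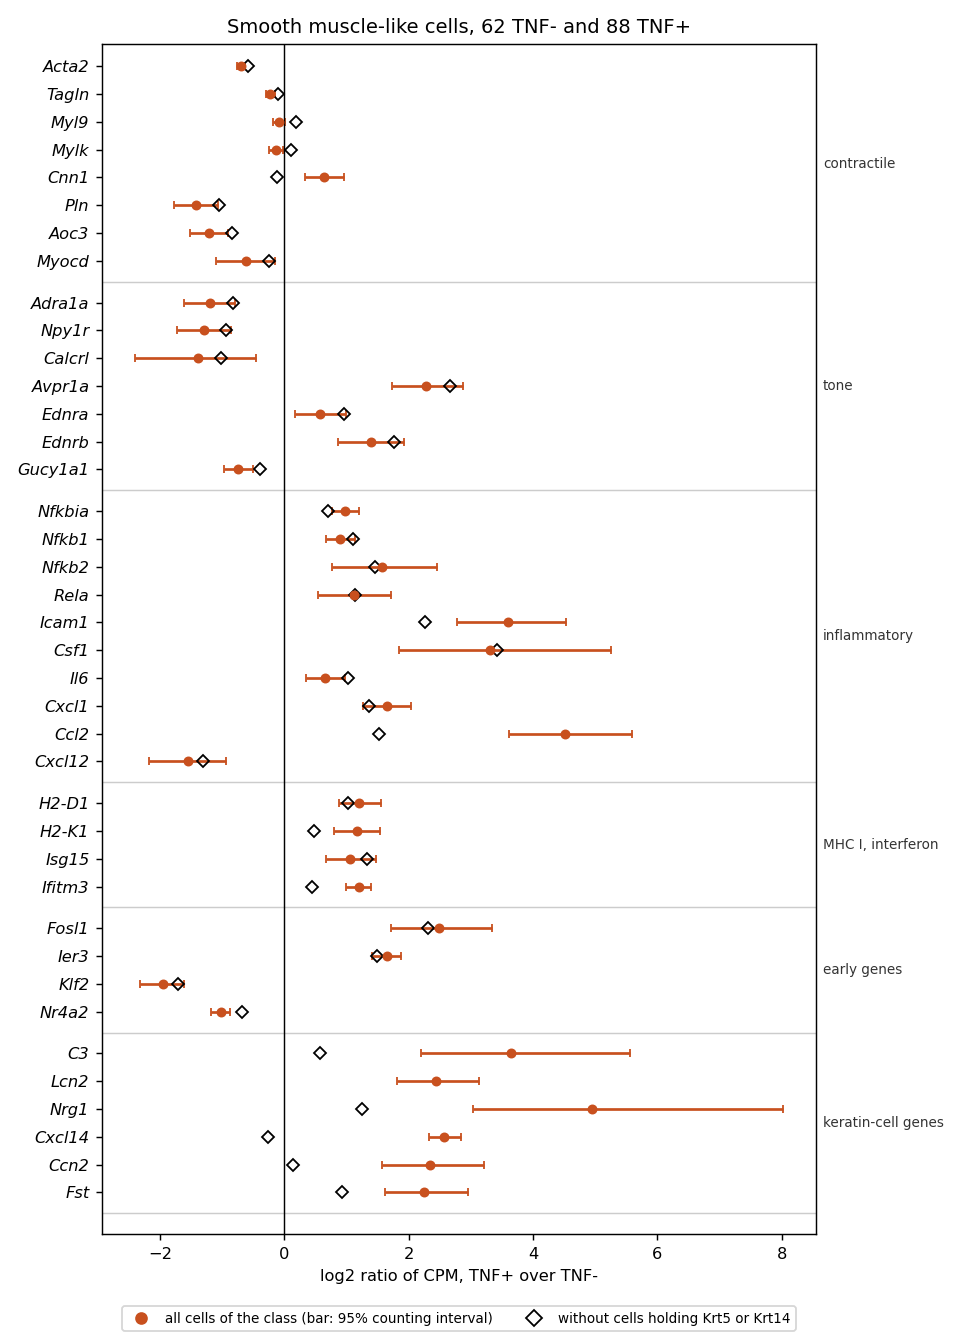
Log2 ratio of CPM (TNF+ over TNF-) of genes in smooth muscle-like cells, grouped by role, with 95% counting intervals (points and bars) and the ratio without the cells that held Krt5 or Krt14 (diamonds; absent where one library then holds no UMI). Among the genes of the contractile list Tagln, Myl9 and Mylk lie near 0, while Acta2, Pln and Aoc3 lie below 0, with and without those cells. NF-kB genes lie above 0 in both, and Cxcl14 moves from 2.58 to -0.26 when those cells are left out.

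The naming rule gave Frmpd4, Icam1, Krt17, Ltbp2, Mme, Nrg1, Pawr, Pcsk5, Plau, Sfn, Spock2 and Xkr4 as the 12 higher genes of smooth muscle-like cells. Krt17, Sfn, Mme, Nrg1 and Icam1 among them were described above in the keratin-bearing cells. Without those cells Plau, the urokinase gene, was at 3.12 CPM in TNF- and 70.9 in TNF+ (4.51) from 2 and 19 cells, Mme had no UMI in either library, and Pcsk5 went from 3.45 to -1.33. Crispld2, a secreted protein known from lung development and chosen here after its values were seen, was at 674 and 2332 CPM (1.79, 1.64 to 1.94), and at 664 and 3086 (2.22) without the keratin-bearing cells. It was in 36.1% of 61 and 63.6% of 88 cells after thinning (64.5% and 89.8% before), and in 0.353% and 0.210% of leukocyte barcodes.

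The 12 lower genes were Asxl2, Ccdc85a, Cck, Ccrl2, Dlat, Hist1h4d, Igfbp5, Magohb, Nrgn, Olfr558, Otud1 and Rasl11a. Rasl11a, a small GTPase, was at 1576 and 479 CPM (-1.72, -1.90 to -1.54) in 49 of 62 and 62 of 88 cells, and Igfbp5, which binds insulin-like growth factors, at 1506 and 525 (-1.52) in 61 and 72 cells. Otud1, a deubiquitinase, was at 462 and 37.0 CPM (-3.64, -4.26 to -3.07) in 27 and 8 cells. Leaving out the keratin-bearing cells gave -1.48 for Rasl11a, -1.21 for Igfbp5 and -3.32 for Otud1. Ccdc85a was named as lower in both classes, at -3.28 in pericyte-like and -1.98 in smooth muscle-like cells (-1.61 without the keratin-bearing cells).

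Transcripts of several other cell types differed between the libraries in the members, some in the direction of all other passing barcodes and some in the opposite one. Skeletal muscle genes summed to 430 CPM in TNF- and 41.7 in TNF+ pericyte-like cells, and to 875 and 20.6 in smooth muscle-like cells, against 903 and 56.4 in all other passing barcodes. All 7 of 7 and 9 of 9 tested skeletal muscle genes were at least 2-fold lower in TNF+. Epithelial genes summed to 0 CPM in TNF- and 3427 in TNF+ pericyte-like cells, the latter with 1 cell of at least 5 UMIs, and to 267 and 1404 in smooth muscle-like cells, against 23.5 and 1517 in all other passing barcodes. Fibroblast genes summed to 1527 and 3254 CPM in pericyte-like and 1234 and 1881 in smooth muscle-like cells, against 29800 and 7839 in all other passing barcodes. Single genes led these sums in TNF+. Col1a1 was at 1967 CPM in pericyte-like cells, and Cxcl14, mostly in the keratin-bearing cells, went from 218 to 1303 CPM in smooth muscle-like cells. Of 10 and 6 tested fibroblast genes 3 and 1 were at least 2-fold higher and 4 and 2 lower, with medians of -0.33 and -0.59. Endothelial genes summed to 1276 and 948 CPM in pericyte-like and 308 and 372 in smooth muscle-like cells, against 1143 and 2765 in all other passing barcodes. Most of the sum in the members was 1 gene, Fabp4, at 982 and 560 CPM in pericyte-like and 259 and 333 in smooth muscle-like cells. In all other passing barcodes Fabp4 was at 303 and 1627 CPM.

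The ratios were also computed without the members that held at least 3 UMIs of an epithelial, a satellite cell or a fibroblast gene set. This left 157 TNF- and 26 TNF+ pericyte-like cells, and 56 and 70 smooth muscle-like cells. Of the 27 TNF+ pericyte-like cells only 1 was left out, so the filter changed that side little. The medians over all tested genes were then -0.20 in pericyte-like and -0.03 in smooth muscle-like cells. The MHC class I medians were 2.26 and 1.09, and those of the NF-kB targets 1.32 and 0.91. The chemokine median of pericyte-like cells went from 1.91 to 2.94, and that of smooth muscle-like cells from 1.65 to -0.64.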

How the data were processed

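Per the labels and the study's methods, the authors pooled synovium by genotype, dissociated it, sorted viable cells, prepared 3' libraries and deposited filtered gene by barcode matrices of raw UMI counts, made with Cell Ranger 7.0.1 on mm10 with default settings, under which reads in introns are counted. No cell annotation was used. The counts were taken as deposited. Barcodes needed at least 500 UMIs and at most 20% mitochondrial UMIs, with no upper gene limit (the study removed cells over 5000 genes, tried here as an alternative). Doublets were not called by a tool. The rule left out only barcodes with Pecam1, Cdh5, Pdgfra or Ptprc, so members with genes of other cell types remained. Each class was summed per library and expressed in CPM of its own UMIs. A gene was compared when it held at least 30 UMIs over both libraries. Shares have exact Clopper-Pearson, levels exact Poisson and log2 ratios conditional binomial 95% intervals, all for counting error only. A zero count was bounded by 3 counts. No p-value was computed, since each group is 1 library of pooled animals. Thinning drew 1000 UMIs per cell. Named genes were the 12 in each direction with the largest bound nearest 0 of the interval among genes with a UMI in at least 10% of the cells of the higher library, at or above the level of the other barcodes there, with the same direction when cells were weighted equally, without genes of the rule, of other cell types' lists and of predicted, ribosomal, mitochondrial or globin families. The 10 named per class were those with the largest smaller bound of the 2 libraries, leaving out only genes of the rule and of those families, so genes of other cell types' lists were kept, and other genes came from written gene lists or are said to be chosen after their values were seen. The members and lists were chosen with earlier results of these data known. The script was tested on simulated counts. Alternatives changed the filters, the marker sum, the exclusions, the class limit, the scaling, the depth and the cells kept. Some genes that met the naming rule or stood in the lists are not reported here. Lung matrices were used only to count members. Promoters came from RefSeq (GRCm38.p6). Python 3.11.15, numpy 2.4.6, scipy 1.17.1, pandas 2.3.3 and matplotlib 3.10.9 were used.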

Additional observations from a re-analysis of the deposited data

Results flagged for a closer look

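Some genes had log2 ratios (TNF+ over TNF-) of opposite sign in the 2 classes, and the difference between the classes was not tested. Ednrb stood at -1.5 in pericyte-like and 1.39 in smooth muscle-like cells, or -0.88 without the 3 deepest pericyte-like cells of each library and 1.76 without the smooth muscle-like cells that held Krt5 or Krt14. Fst, the activin antagonist follistatin, stood at -3.43 and 2.26, or -2.72 and 0.93 (-0.003 to 1.89) without those cells. The matrix genes Col3a1, Col6a3 and Dcn stood at 3.46, 1.83 and 1.44 in pericyte-like cells and at -1.47, -1.30 and -1.95 in smooth muscle-like cells. Without those cells they stood at 2.77, 0.64 and -3.05 and at -1.25, -0.92 and -2.53, so the opposite sign of Dcn was not kept. Outside the members, Rgs5 was at 3286 CPM in the TNF+ barcodes that met the marker sum and failed on Pecam1 or Cdh5 alone.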

How the results depend on the processing

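The pericyte-like share had a negative log2 ratio under the rule and every alternative but 1: without the exclusion by Pecam1 and Cdh5 it was 0.81, and the cause was not tested. That alternative and those leaving out the 3 deepest cells, members with Krt5 or Krt14, or members with epithelial, satellite or fibroblast UMIs were chosen after seeing the data. Counts of genes past 2-fold depended on the minimum UMIs per gene, which sets how many genes are compared. In pericyte-like cells the higher genes numbered 863 at 15 UMIs and 187 at 100, and the lower ones 2100 and 366. In smooth muscle-like cells these were 932 and 173, and 698 and 69. Between classes, 480 and 57 genes were higher in pericyte-like cells, 176 in smooth muscle-like cells at 100 UMIs, and 357 in pericyte-like cells after thinning to 2000 UMIs. Without the 3 deepest cells 342 genes (6.64% of 5153) were higher in TNF+ pericyte-like cells. In smooth muscle-like cells 270 (5.98% of 4513) were higher without members holding Krt5 or Krt14, and 278 (6.49% of 4281) without members holding epithelial, satellite or fibroblast UMIs. Pcsk5 went to -1.33 without the Krt5 or Krt14 members and Hist1h4d to 0.15 with classes set by a 3-fold excess, and the cause was not tested. Of 658 values for 44 named genes in pericyte-like cells 577 lay within the counting interval of the reported value and 81 outside it, among them 25 with cells weighted equally and 24 without the 3 deepest cells. Of 725 values for 49 genes in smooth muscle-like cells, 661 lay within it, 62 outside it and 2 changed sign from a reported ratio of at least 2-fold. Sign changes of smaller ratios, such as those of Myl9, Mylk and Cnn1, were not counted apart. Genes with no UMI in a library were set to the floor of 3 counts. Cxcl5 gave no value after thinning or without the 3 deepest cells. Nrg1, Spock2, Xkr4, Krt17, Frmpd4 and Sfn gave none without the epithelial, satellite or fibroblast members, and Spock2, Sfn and Mme none without the Krt5 or Krt14 members. No paired analysis was possible because each group is 1 library and the labels carry no replicate numbers. The 27 TNF+ pericyte-like cells limit every ratio of that class.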
